A study of Mus musculus with 16 samples.

Results

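The SOCS (suppressor of cytokine signalling) family has 8 members in the mouse, Cish and Socs1 to Socs7, and the open chromatin around these 8 genes is described here in haematopoietic progenitor cells. The members were the 8 named genes, taken by name and not by a measured value. Earlier results of these data were known when they were chosen. Every open region within the gene or within 30 kb on either side was taken, which gave 89 of the 122020 regions found in the whole series. Open chromatin was mapped by ATAC-seq, a method that tags accessible DNA with the transposase Tn5, in cells the labels call haematopoietic progenitors or multipotent progenitors (MPP), from mice 21 days old. The groups carrying Flt3-ITD, an internal tandem duplication in the Flt3 receptor gene, were, in set 1, Flt3-ITD alone and together with Runx1-het (Flt3-ITD/Runx1-het), and in set 2 Flt3-ITD alone and together with NUP98-HOXD13 (NUP98-HOXD13/Flt3-ITD). The groups without it were wild type and Runx1-het (heterozygous for the transcription factor gene Runx1) in set 1, and wild type and NUP98-HOXD13 (a leukaemia fusion gene) in set 2. The promoter or driver of each allele, the number of animals behind a sample and the way the 2 sets differ are not known from the sources used here.

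Each of the 8 groups had 2 samples but only 1 deposited peak list, which both samples share. No value below therefore has a replicate check, no p-value between genotypes was computed, and read depth is unknown. In place of a test, each count of the main comparisons is set beside the same count over all regions or all genes. For each peak the authors deposited the fold enrichment at its summit and a −log10 p; both come from the authors' peak calling and serve here only to describe and rank peaks within 1 list. The lists held 84080 peaks (set-2 Flt3-ITD) to 138514 peaks (set-2 wild type), and the set-2 Flt3-ITD list also had the lowest median −log10 p, 15.8 against 24.7 to 38.5 in the other 7. For this reason ranks were compared after every list had been shortened to its 84080 strongest peaks by −log10 p, called equal-length lists below. A percentile is the share of the peaks of a list that have a lower −log10 p than the best peak of the region. Markers of the labelled cell type were open, with a region at 10 of 10 progenitor markers in all 8 lists. The best percentile at one of them, Cd48, ran from 16.2 to 83.7 over the lists. Markers of other cells also had regions in all 8 lists, namely 4 of 4 of stroma and endothelium, 2 of 5 of neutrophils, 2 of 5 of T cells and 1 of 4 of erythroid cells. The 4 B cell markers each had a region in 4 to 7 lists, while Elane and Ngp of neutrophils, Cd8a of T cells and Hba-a1 and Slc4a1 of erythroid cells had none in any list. Of 4 markers of tissues other than blood, Myh6 had a region in 7 lists, and Alb, Ins2 and Krt5 had none. The part of other cells in the results was not tested.

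SOCS proteins are feedback inhibitors of cytokine receptors. A cytokine receptor activates JAK kinases, these activate STAT transcription factors, and STAT proteins switch on several SOCS genes, whose products then block the kinase or the receptor and recruit a ubiquitin ligase through the SOCS box. In blood cells, CIS (from Cish) and SOCS2 are known as inducible brakes on STAT5 signalling, SOCS1 on interferon signalling, and SOCS3 on IL-6 and G-CSF signalling. SOCS4 to SOCS7 are less closely tied to JAK and STAT proteins, and SOCS4 and SOCS5 have been studied as regulators of the EGF receptor. Flt3-ITD is known as an activator of STAT5, so STAT-responsive genes are a natural place to look in these cells.

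The start sites of 4 members were covered by RefSeq promoter sequences of GRCm38.p6, each 300 bases long with 250 bases before and 50 after the start. They are shown because each lies whole inside a region open in all 8 lists, and because 3 of them carry short sequences of the kind that STAT and interferon-activated factors are known to bind. Capitals mark TTCNNNGAA, the STAT dimer pattern, and the core of the interferon-stimulated response element, which is GAAA and a second GAAA 2 bases further on; the Cish window is chr9:107296409-107296708 (plus strand), the Socs1 window chr16:10785487-10785786 (minus), the Socs3 window chr11:117969317-117969616 (minus) and the Socs4 window chr14:47276670-47276969 (plus).
Cish: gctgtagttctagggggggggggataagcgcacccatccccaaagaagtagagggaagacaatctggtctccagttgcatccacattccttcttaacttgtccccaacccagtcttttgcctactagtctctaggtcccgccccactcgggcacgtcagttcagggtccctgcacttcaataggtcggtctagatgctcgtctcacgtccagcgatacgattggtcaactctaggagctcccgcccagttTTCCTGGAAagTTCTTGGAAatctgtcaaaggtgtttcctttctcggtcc
Socs1: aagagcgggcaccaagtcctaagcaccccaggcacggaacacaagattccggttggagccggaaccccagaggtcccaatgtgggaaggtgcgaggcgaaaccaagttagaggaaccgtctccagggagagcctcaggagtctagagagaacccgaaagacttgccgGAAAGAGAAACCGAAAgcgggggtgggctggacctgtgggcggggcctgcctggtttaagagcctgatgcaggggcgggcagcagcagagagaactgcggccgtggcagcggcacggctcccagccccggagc
Socs3: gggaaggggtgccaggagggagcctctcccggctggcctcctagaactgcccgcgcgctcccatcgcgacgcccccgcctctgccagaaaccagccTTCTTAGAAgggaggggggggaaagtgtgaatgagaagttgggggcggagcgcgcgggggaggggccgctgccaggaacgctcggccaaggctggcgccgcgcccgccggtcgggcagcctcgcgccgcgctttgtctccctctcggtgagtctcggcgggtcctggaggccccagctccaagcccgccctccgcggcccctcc
Socs4: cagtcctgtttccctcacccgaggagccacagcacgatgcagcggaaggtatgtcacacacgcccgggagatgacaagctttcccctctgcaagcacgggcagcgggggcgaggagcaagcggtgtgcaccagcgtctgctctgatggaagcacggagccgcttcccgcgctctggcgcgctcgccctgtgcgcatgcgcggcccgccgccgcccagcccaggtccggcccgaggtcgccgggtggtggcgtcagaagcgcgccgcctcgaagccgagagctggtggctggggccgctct

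The Cish window held a pair of STAT patterns, TTCCTGGAA at bases 251 to 259 and TTCTTGGAA at bases 262 to 270, that is from the first base of the transcript onward. The Socs3 window held 1, TTCTTAGAA, which starts 154 bases before the start site. The Socs1 window held no STAT pattern but 2 overlapping interferon-type matches, GAAAGAGAAA and GAAACCGAAA, which start 83 and 77 bases before the start site and share 4 bases. The Socs4 window held neither. Over all 32851 RefSeq promoters of the same length, 8.30% held TTCNNNGAA on either strand and 0.457% held it at least 2 times. The interferon-type pattern occurred in 3.44% of promoters, and at least 2 times in 0.225%. A RUNX pattern (TGTGGT, in 16.8% of all promoters) and a HOX and PBX pattern (TGATTNAT, in 3.22%) were searched on both strands as well and matched none of the 4 windows. A match describes letters only, not binding.

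The gene spans, in RefSeq GRCm38.p6, were chr9:107296659-107302784 for Cish, chr16:10783808-10785536 for Socs1, chr10:95383903-95417321 for Socs2 and chr11:117966079-117970336 for Socs3. Those of the other 4 were chr14:47276920-47296102 for Socs4, chr17:87107278-87137647 for Socs5, chr18:88865169-88894364 for Socs6 and chr11:97362292-97398542 for Socs7. The 89 regions were spread unevenly over the family. Cish had 14 regions in its window, Socs1 13, Socs2 16, Socs3 17 and Socs7 11, whereas Socs4, Socs5 and Socs6 had 6 each. The median over the 8 genes was 12, against 7 over all 21887 protein-coding genes. Of the 89 regions, 38 were open in all 8 lists and 15 in 1 list. Socs2 stood at the changeable end, with 2 of 16 regions in all 8 lists and 7 in 1 list. With Flt3-ITD its window held 6 regions (set 1), 12 (with Runx1-het), 4 (set 2) and 4 (with NUP98-HOXD13), against 7 in set-1 wild type, 5 in Runx1-het, 4 in set-2 wild type and 5 in NUP98-HOXD13. The high count was that of Flt3-ITD/Runx1-het alone, and the other lists ran from 4 to 7. At the 30 kb limit, the outermost regions counted were 29.3 kb from Socs7 (−log10 p of 25.9 to 172 over 8 lists) and 29.7 kb from Socs6 (103.5 to 603.7), and the nearest ones left out were 30.7 kb from Cish (20.9 to 106 in 7 lists) and 31.8 kb from Socs2 (8.75 in 1 list).

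**Figure D1:**
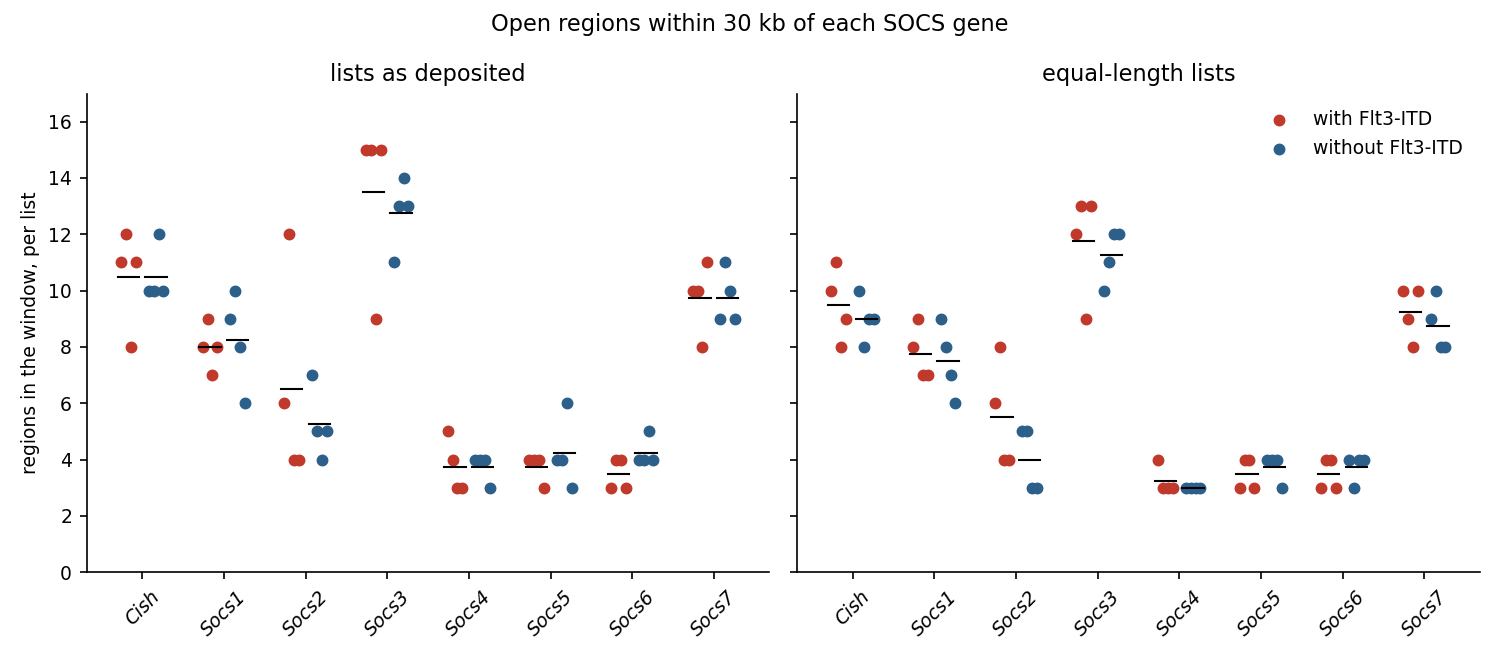
Number of open regions (y axis) in the window of each SOCS gene (x axis); each point is 1 peak list, with Flt3-ITD (red, left) or without (blue, right), and bars are means of 4 lists. The left panel shows lists as deposited and the right panel equal-length lists. The groups overlap for every gene.

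Over the family as a whole, the number of open regions overlapped between lists with and without Flt3-ITD. As deposited, the 8 windows held 62 regions in set-1 Flt3-ITD, 70 in Flt3-ITD/Runx1-het, 47 in set-2 Flt3-ITD and 58 in NUP98-HOXD13/Flt3-ITD. Without Flt3-ITD they held 58 in set-1 wild type, 61 in Runx1-het, 63 in set-2 wild type and 53 in NUP98-HOXD13. The low count in set-2 Flt3-ITD belongs to the shortest list; in equal-length lists the counts were 47 to 61 with Flt3-ITD, against 48 to 54 without it. As a share of all regions of the list, the SOCS windows took 0.0771% to 0.0860% with Flt3-ITD and 0.0680% to 0.0804% without it.

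Pair by pair in the lists as deposited, gains lay close to the share of all regions in 3 pairs, and losses lay below it in 3. In set-1 Flt3-ITD, 12 of the 70 regions open in it or in wild type were gained (17.1%, background 18.7%) and 8 were lost (11.4%, background 10.1%). Flt3-ITD/Runx1-het against Runx1-het gained 16 of 77 (20.8%, background 14.4%) and lost 7 (9.09%, background 15.7%). In set 2, Flt3-ITD against wild type gained 3 of 66 (4.55%, background 4.35%) and lost 19 (28.8%, background 38%). The pair of NUP98-HOXD13/Flt3-ITD and NUP98-HOXD13 gained 9 of 62 (14.5%, background 13.4%) and lost 4 (6.45%, background 16.5%). The largest loss was that of the shortest list, and with equal-length lists it was 12 of 59 (20.3%, background 23.9%). No region was open in all 4 Flt3-ITD lists as deposited and in none of the other 4 (0 of 89, background 0.0582%), and 1 showed the reverse (background 0.192%). Asked in at least 3 of the 4 matched pairs, 1 of 89 regions was gained with Flt3-ITD (background 0.573%) and 1 was lost (background 1.81%).

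Strength within the list gave a sharper picture than presence. Of 37 SOCS regions present in all 8 equal-length lists, 3 had percentiles that were higher in every Flt3-ITD list than in any other list, a share of 8.11% against a background of 1.61% of 39720 regions. None of the 37 was lower in the same sense (background 1.66%). The 3 regions were 2 at Socs2 and 1 at Socs1. This comparison of ranks was chosen after values had been seen. The median difference between the Flt3-ITD mean and the mean of the other lists was 0.97 percentile points over the 37 regions and −0.17 points over all regions, so the typical SOCS region hardly differed.

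**Figure D2:**
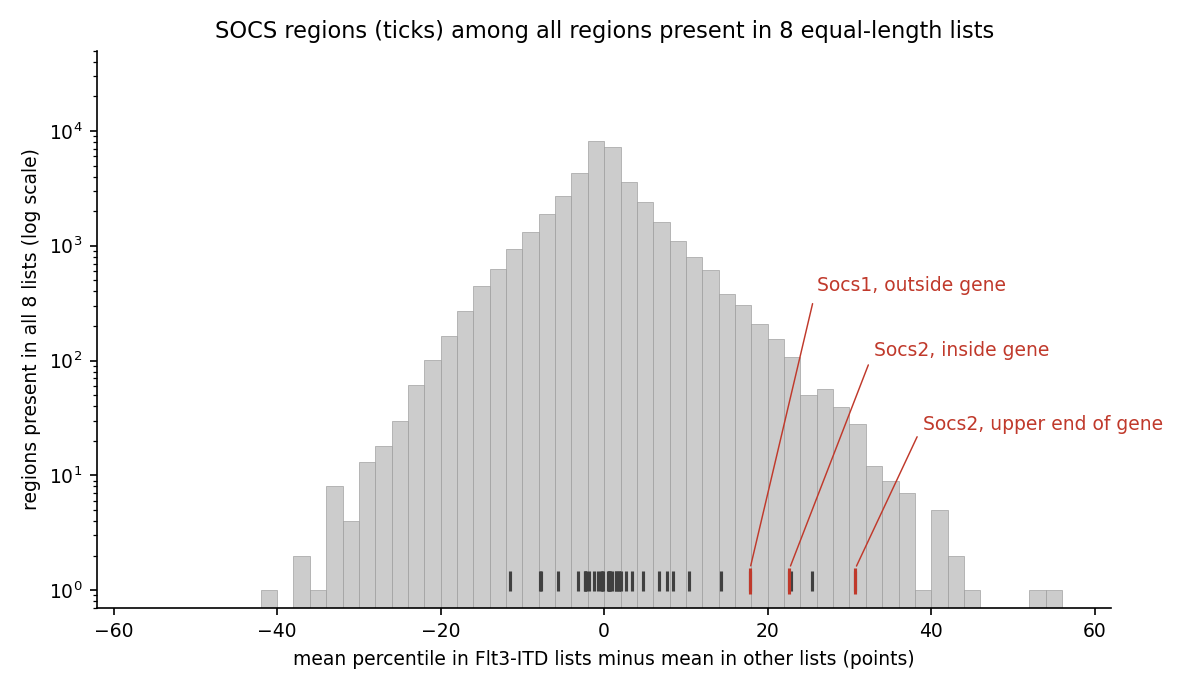
Mean percentile in the 4 Flt3-ITD lists minus the mean in the other 4 (x axis, points) for all 39720 regions in 8 equal-length lists (grey bars, log count on the y axis), with the 37 SOCS regions as ticks. Red ticks mark the 3 without overlap between groups; the Socs2 region at the upper end of the gene lies at 30.6 points, and most black ticks lie near 0.

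Socs2, whose product restrains growth hormone and STAT5 signalling, carried the clearest difference of the family. The region is at the upper end of the gene span, at chr10:95415569-95417752 in GRCm38, and also overlaps the non-coding RNA gene 5730420D15Rik, so the files do not tell these genes apart. Its −log10 p was 238.6 in set-1 Flt3-ITD, 301.5 in Flt3-ITD/Runx1-het, 84.7 in set-2 Flt3-ITD and 209.7 in NUP98-HOXD13/Flt3-ITD, against 73.2 in set-1 wild type, 109 in Runx1-het, 101 in set-2 wild type and 46.5 in NUP98-HOXD13. Its fold enrichment was 10.02 in set-1 Flt3-ITD, 11.0 in Flt3-ITD/Runx1-het, 12.0 in set-2 Flt3-ITD and 9.30 in NUP98-HOXD13/Flt3-ITD, against 6.79 in set-1 wild type, 7.69 in Runx1-het, 6.81 in set-2 wild type and 6.13 in NUP98-HOXD13. The fold values of the 4 Flt3-ITD lists all lay above those of the other 4, while the −log10 p of the short set-2 Flt3-ITD list fell among them.

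In equal-length lists the same Socs2 region stood at percentiles of 90.2 in set-1 Flt3-ITD, 93.3 in Flt3-ITD/Runx1-het, 93.8 in set-2 Flt3-ITD and 90.4 in NUP98-HOXD13/Flt3-ITD, against 63.2 in set-1 wild type, 71.3 in Runx1-het, 58.2 in set-2 wild type and 52.5 in NUP98-HOXD13. The gap between the lowest Flt3-ITD list and the highest other list was 18.96 points. Only 6 of the 39720 regions, 0.0151%, had a gap at least as wide in that direction. The other 5 had as nearest genes Crisp3, Supt3, Cdh2, Gbp8 and Itga5, of which Supt3 lay 125.3 kb and Cdh2 196.2 kb away. When peaks were ranked by fold enrichment in place of −log10 p, this was the 1 SOCS region without overlap (background 1.19%), with a gap of 15.9 points, and 7 of 39315 regions (0.0178%) had one as wide. In the lists as deposited it was the 1 SOCS region of 38 without overlap (background 0.557%).

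**Figure D3:**
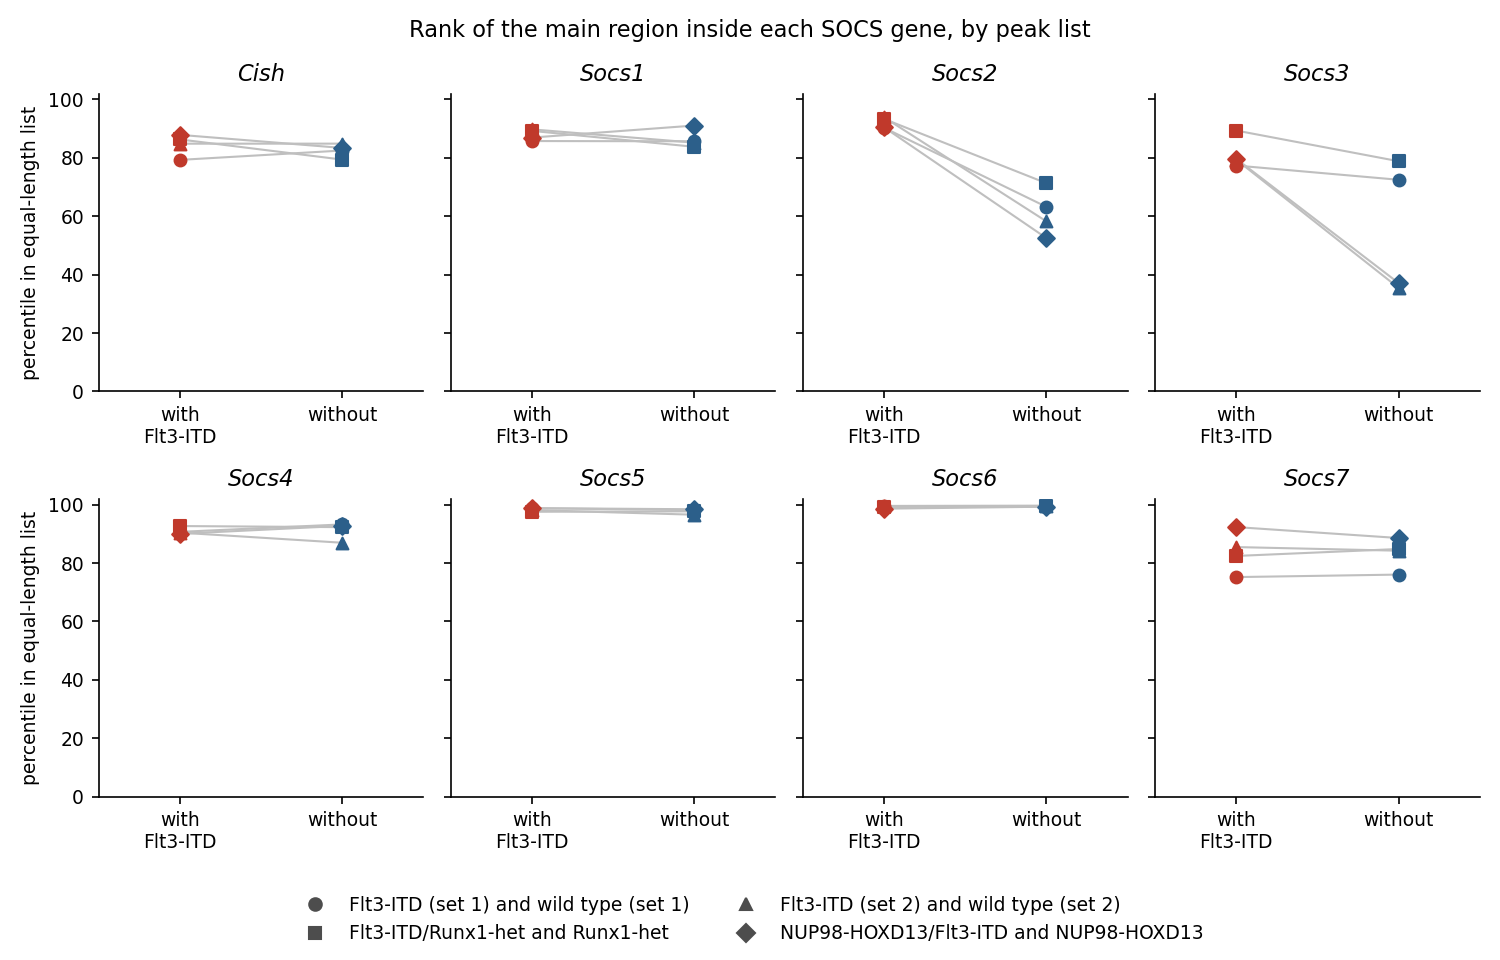
Percentile of the main region of each SOCS gene in equal-length lists (y axis) for Flt3-ITD lists (red, left) and lists without it (blue, right); a grey line joins a matched pair and the symbol gives the pair. Socs2 is higher with Flt3-ITD in all 4 pairs by 21.98 to 37.9 points, Socs3 mainly in set 2, and the other 6 genes stay within 6.91 points.

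The difference at Socs2 was concentrated on 1 summit. Of the 8 lists, 7 placed a summit 254 to 293 bp below the upper end of the gene, and all 8 placed another 474 to 536 bp below it. At the outer summit the fold enrichment was 10.02 in set-1 Flt3-ITD, 11.0 in Flt3-ITD/Runx1-het, 12.0 in set-2 Flt3-ITD and 9.30 in NUP98-HOXD13/Flt3-ITD, against 6.79 in set-1 wild type, 7.09 in Runx1-het and 6.72 in set-2 wild type, and NUP98-HOXD13 had no summit there. At the inner summit the values lay closer, 7.05 to 8.65 in the 4 Flt3-ITD lists, against 6.13 to 7.69 in the other 4, and the groups overlapped. The ratio of the outer to the inner summit, taken within a list, was 1.42 in set-1 Flt3-ITD, 1.45 in Flt3-ITD/Runx1-het, 1.39 in set-2 Flt3-ITD and 1.26 in NUP98-HOXD13/Flt3-ITD, against 1.08 in set-1 wild type, 0.922 in Runx1-het and 0.986 in set-2 wild type. The outer summit was thus clearly the higher one in all 4 Flt3-ITD lists, while both were nearly level in the other 3 lists that had it. Weak summits further inside the gene, 1276 to 1602 bp below the upper end, were listed in all 4 lists without Flt3-ITD and, of the Flt3-ITD lists, in NUP98-HOXD13/Flt3-ITD. Weak summits 202 to 229 bp above the upper end were listed only in set-1 wild type, Runx1-het and set-2 wild type.

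**Figure D4:**
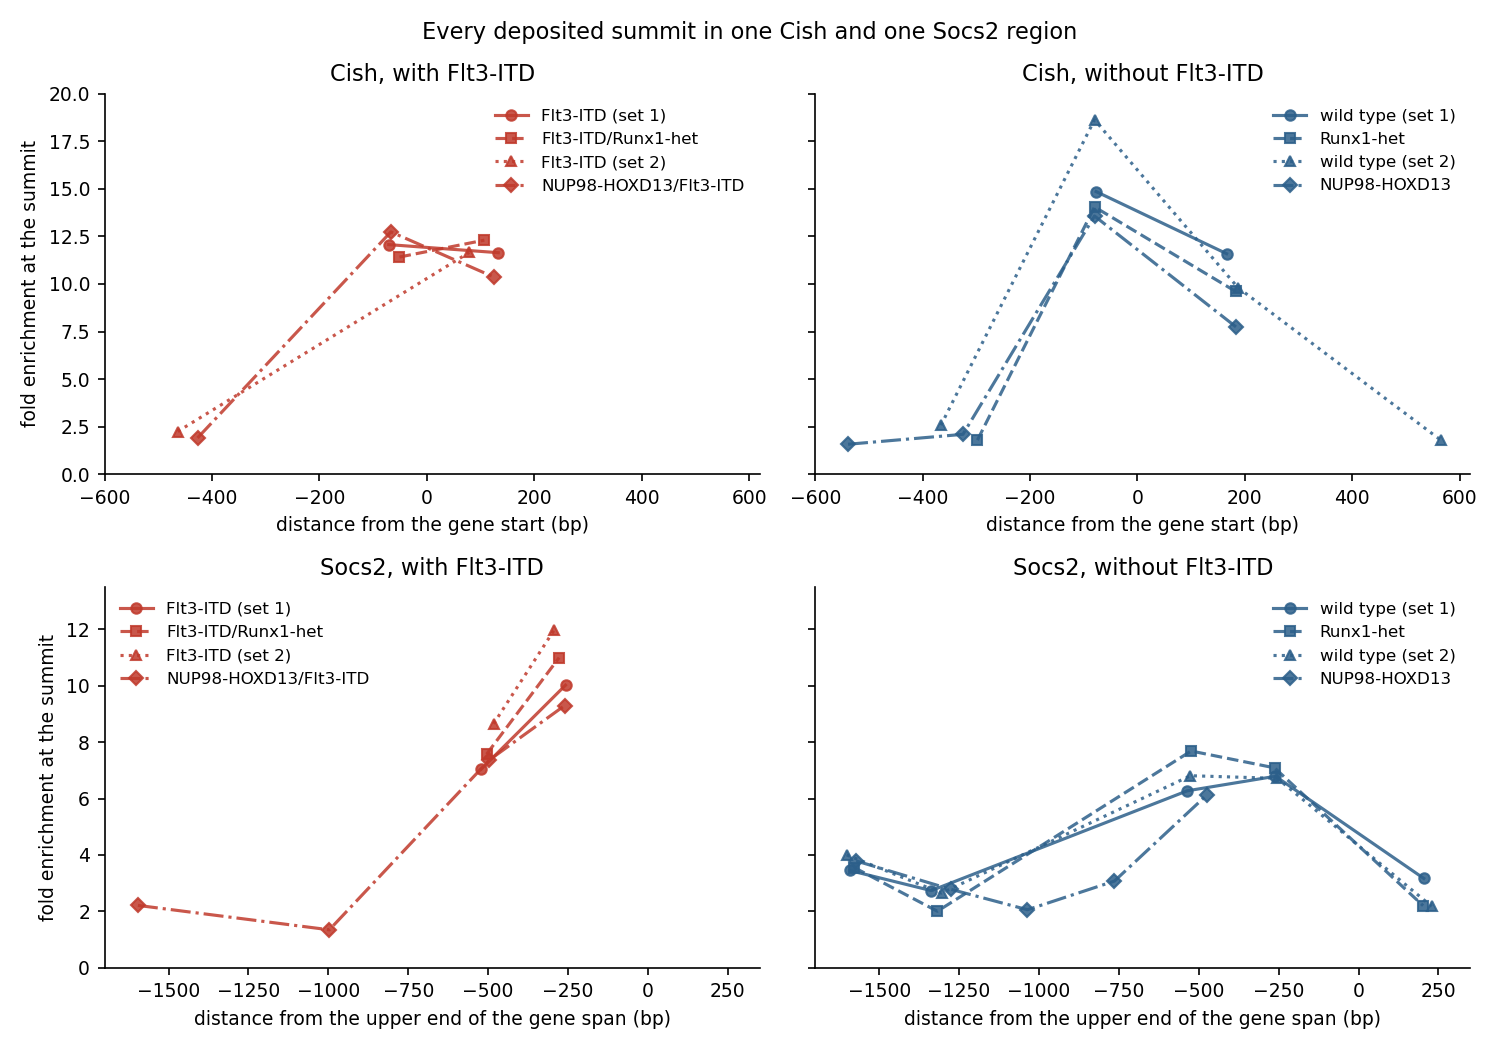
Fold enrichment (y axis) of every summit in the Cish start region (top) and the upper-end region of Socs2 (bottom) by position (x axis, bp); each line joins the summits of 1 list, with Flt3-ITD in red at the left and without in blue at the right. The Flt3-ITD lines climb to 9.30 to 12.0 at the outer Socs2 summit. At Cish the upstream summit is the higher one in every list without Flt3-ITD, with downstream-over-upstream ratios of 0.527 to 0.780. With Flt3-ITD the ratios are 0.814 to 1.08, and set-2 Flt3-ITD has no upstream summit.

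Another Socs2 region, inside the gene at chr10:95398254-95399038, ranked in the same direction. Its percentiles were 80.4 in set-1 Flt3-ITD, 76.4 in Flt3-ITD/Runx1-het, 74.7 in set-2 Flt3-ITD and 68.8 in NUP98-HOXD13/Flt3-ITD, against 59.8 in set-1 wild type, 45.4 in Runx1-het, 61.6 in set-2 wild type and 43.3 in NUP98-HOXD13. The gap was 7.26 points, as wide as in 0.234% of all regions. By fold enrichment this region overlapped, at percentiles 63.03 to 77.3 with Flt3-ITD and 49.0 to 68.1 without it. A further region, chr10:95367489-95368209, 15.7 kb below the Socs2 span, was open in both set-1 lists with Flt3-ITD (−log10 p of 24.6, and 28.4 with Runx1-het) and in no other list. Not every Socs2 region went this way. One 0.6 kb above the span, chr10:95417938-95418199, was missing from set-2 Flt3-ITD and open in the other 7 lists. Its highest −log10 p was 92.7, in set-2 wild type. In equal-length lists its percentile differed by −3.64 points in set-1 Flt3-ITD minus wild type. With minus without Flt3-ITD, the difference was −21.7 points for the Runx1-het pair and 20.9 for the NUP98-HOXD13 pair.

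Cish, the gene of the STAT5-induced inhibitor CIS, differed above the gene and in the shape of its start region. A region 4.6 kb above the gene, at chr9:107307402-107308328, had a −log10 p of 29.9 in set-1 Flt3-ITD, 37.0 in Flt3-ITD/Runx1-het, 14.7 in set-2 Flt3-ITD and 24.7 in NUP98-HOXD13/Flt3-ITD, against 9.71 in Runx1-het and 17.1 in set-2 wild type, with no peak in set-1 wild type or NUP98-HOXD13. Its fold enrichment was 4.63 to 5.04 in the 4 Flt3-ITD lists, and 2.86 in Runx1-het and 3.37 in set-2 wild type. Equal-length lists kept neither the Runx1-het nor the set-2 wild-type peak. The region was then the 1 SOCS region of 75 open in all 4 Flt3-ITD lists and in none of the other 4 (background 0.106%). In set 2 this result rested on different cutoffs. The lowest −log10 p kept was 26.9 in set-2 wild type, while the set-2 Flt3-ITD list was not shortened. The dropped set-2 wild-type peak, at 17.1, had a higher −log10 p than the kept set-2 Flt3-ITD peak, at 14.7. The region was thus weak, and open or higher in fold enrichment with Flt3-ITD.

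The start region of Cish, chr9:107296050-107297301, overlapped in rank, at percentiles of 79.3 to 87.8 with Flt3-ITD and 79.4 to 84.8 without it. Its inner shape differed, as the plot of summits shows. The summit upstream of the start site had a fold enrichment of 12.1 in set-1 Flt3-ITD, 12.7 in NUP98-HOXD13/Flt3-ITD and 11.4 in Flt3-ITD/Runx1-het, with none listed in set-2 Flt3-ITD, against 14.8 in set-1 wild type, 14.0 in Runx1-het, 18.6 in set-2 wild type and 13.6 in NUP98-HOXD13. At the downstream summit it was 11.6 in set-1 Flt3-ITD, 12.3 in Flt3-ITD/Runx1-het, 11.7 in set-2 Flt3-ITD and 10.4 in NUP98-HOXD13/Flt3-ITD, against 11.6 in set-1 wild type, 9.60 in Runx1-het, 9.81 in set-2 wild type and 7.73 in NUP98-HOXD13. Downstream over upstream, the ratio was 0.814 to 1.08 in the 3 Flt3-ITD lists with both summits, against 0.527 to 0.780 in the 4 lists without Flt3-ITD.

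The downstream Cish summit also sat elsewhere. It lay 133 bp after the start site in set-1 Flt3-ITD, 107 in Flt3-ITD/Runx1-het, 79 in set-2 Flt3-ITD and 125 in NUP98-HOXD13/Flt3-ITD, against 166 in set-1 wild type, 183 in Runx1-het, 187 in set-2 wild type and 184 in NUP98-HOXD13. All 4 Flt3-ITD positions were closer to the start site than any of the other 4. In set-2 Flt3-ITD it was the only strong summit, the other lying at −464 bp with a fold enrichment of 2.25. Whether it matches the downstream summit of the other lists is therefore not known. The highest summit of a region was apart without overlap in 3 of 38 SOCS regions open in all 8 lists, Cish among them (background 2.68%). For Cish this measure rested on a few bases in some lists, with the highest summit at −71, 107, 79 and −67 bp with Flt3-ITD, against −77, −80, −80 and −80 bp without it. The summit comparisons at Cish and Socs2 were chosen after the values had been seen. The share of all regions with such summit ratios, or with such a shift of a second summit, was not computed.

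**Figure D5:**
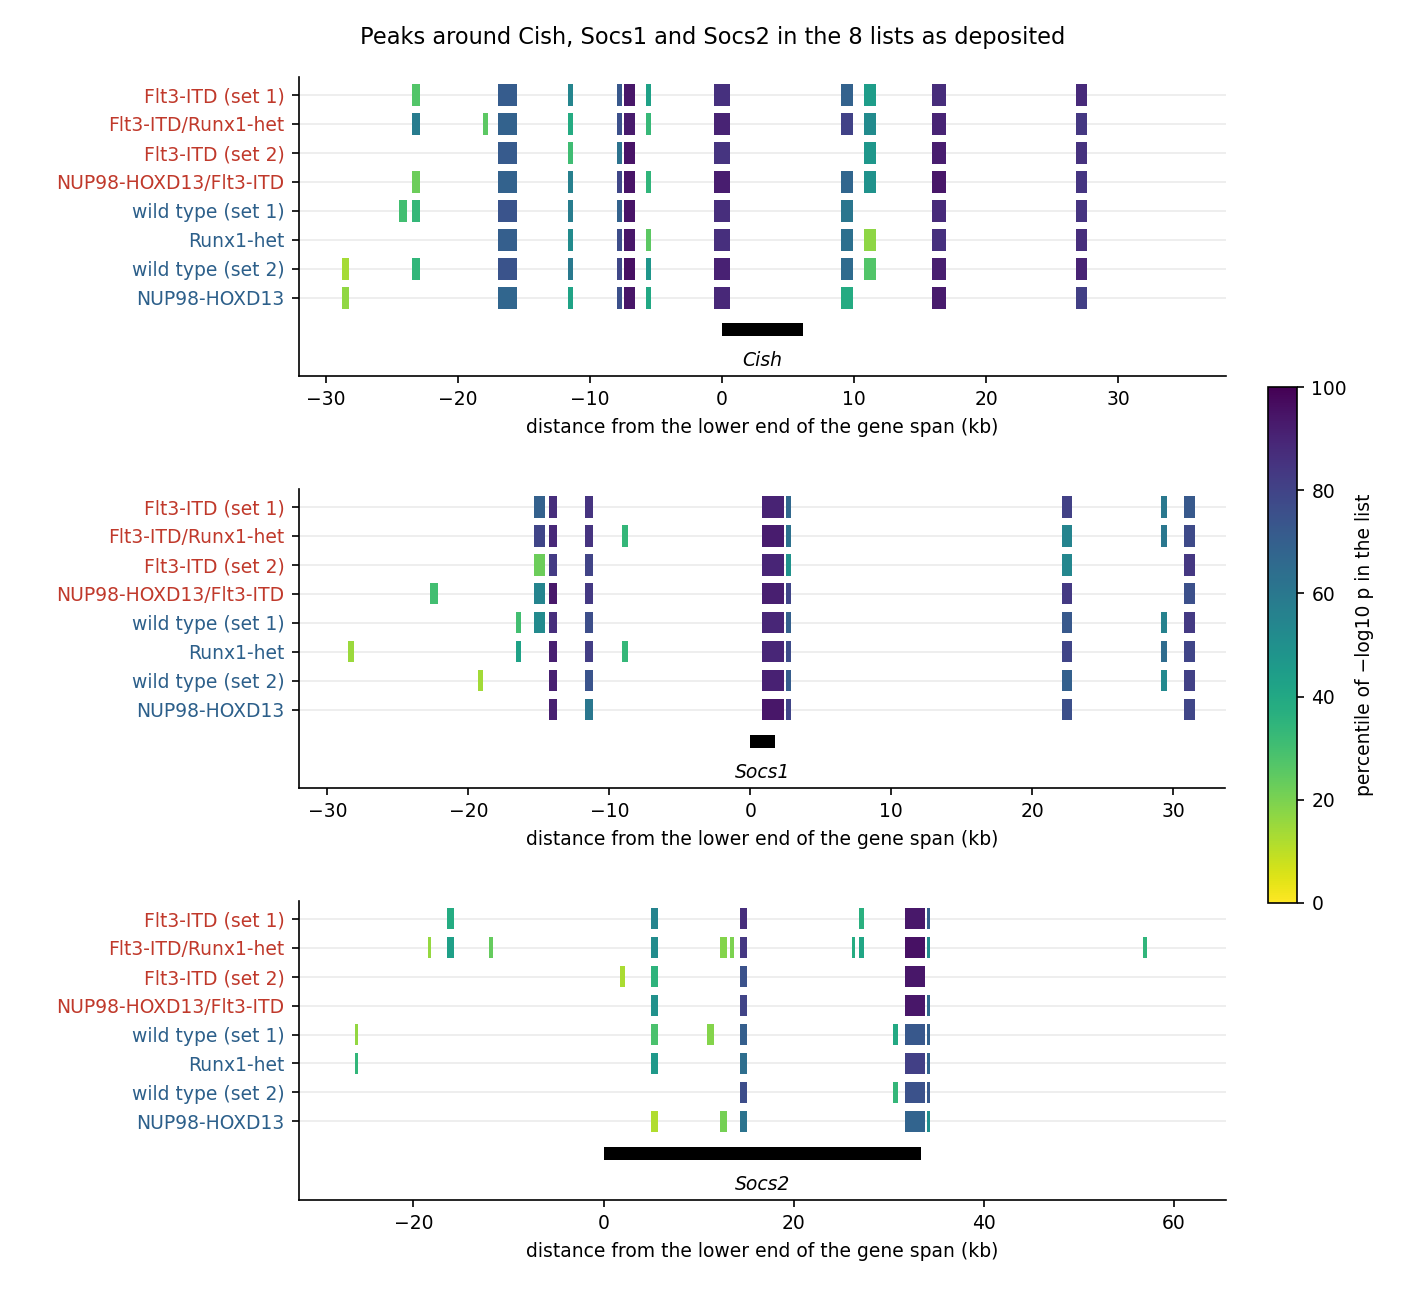
Peaks (coloured bars) in each list as deposited around Cish, Socs1 and Socs2, by distance from the lower end of the gene span (x axis, kb); colour is the percentile of −log10 p within the list, and Flt3-ITD lists are in the upper 4 rows. The darkest change is at the upper end of Socs2. The region 4.6 kb above Cish is absent from wild type (set 1) and NUP98-HOXD13, and the one 2.9 kb above Cish is absent only from set-2 Flt3-ITD.

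Socs1, whose product blocks JAK kinases downstream of interferon receptors, kept its start region in all 8 lists and differed further out. The start region, chr16:10784657-10786230, stood at percentiles of 85.7 to 89.7 with Flt3-ITD and 83.8 to 91.0 without it. A region 11.2 kb below the gene, chr16:10772107-10772652, which is downstream since Socs1 is on the minus strand, had percentiles of 77.5 in set-1 Flt3-ITD, 77.9 in Flt3-ITD/Runx1-het, 79.8 in set-2 Flt3-ITD and 74.8 in NUP98-HOXD13/Flt3-ITD, against 68.2 in set-1 wild type, 72.4 in Runx1-het, 57.1 in set-2 wild type and 41.0 in NUP98-HOXD13. The gap of 2.34 points was matched or exceeded in 0.733% of all regions, and by fold enrichment the groups overlapped.

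A neighbouring Socs1 region, 14.5 kb below the gene at chr16:10768483-10769281, met the presence rule. It was open in all 4 Flt3-ITD lists, with a −log10 p of 67.2 in set-1 Flt3-ITD, 100.2 in Flt3-ITD/Runx1-het, 8.18 in set-2 Flt3-ITD and 29.5 in NUP98-HOXD13/Flt3-ITD, against 36.6 in set-1 wild type and no peak in Runx1-het, set-2 wild type and NUP98-HOXD13. This was the 1 region gained in 3 of the 4 pairs. In equal-length lists it and the region 4.6 kb above Cish were the 2 of 75 that met that rule (background 1.02%). On the other side of Socs1, chr16:10812990-10813412 was open in all 4 lists of set 1 (−log10 p of 48.3 in Flt3-ITD and 48.2 in Flt3-ITD/Runx1-het, against 40.2 in wild type and 55.6 in Runx1-het) and in set 2 was listed only in wild type, at 43.0.

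Socs3, the inhibitor of IL-6 and G-CSF receptor signalling, differed at its start site in set 2 more than in set 1. The start region, chr11:117968674-117969738, had percentiles of 77.3 in set-1 Flt3-ITD, 89.3 in Flt3-ITD/Runx1-het, 79.3 in set-2 Flt3-ITD and 79.6 in NUP98-HOXD13/Flt3-ITD, against 72.5 in set-1 wild type, 78.8 in Runx1-het, 35.5 in set-2 wild type and 37.1 in NUP98-HOXD13. Each Flt3-ITD list ranked above its own partner, but set-1 Flt3-ITD lay below Runx1-het, so the groups overlapped. Fold enrichment followed the same order within pairs, 13.02 in set-1 Flt3-ITD, 16.7 in Flt3-ITD/Runx1-het, 12.3 in set-2 Flt3-ITD and 9.74 in NUP98-HOXD13/Flt3-ITD, against 11.3 in set-1 wild type, 13.2 in Runx1-het, 7.83 in set-2 wild type and 6.39 in NUP98-HOXD13. The difference between the sets was not tested.

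At Socs4 to Socs7, the start region (Socs4) or the strongest region over the gene span (the other 3, whose strand was not known) was open in all 8 lists, and percentiles overlapped between lists with and without Flt3-ITD. The region at Socs4, shared with the replication gene Wdhd1, stood at percentiles of 90.02 to 92.7 with Flt3-ITD and 87.0 to 93.2 without it. At Socs5, shared with the non-coding RNA gene Gm30510, percentiles were 97.6 to 98.8 with Flt3-ITD and 96.6 to 98.4 without it. Socs6 had the strongest of these regions, at percentiles of 98.6 to 99.6 with Flt3-ITD and 99.3 to 99.7 without it, and Socs7 ranged from 75.2 to 92.3 with Flt3-ITD and 76.1 to 88.6 without it.

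Outside the gene, Socs6 held the 1 SOCS region listed in all 4 lists without Flt3-ITD and in none with it. It lies 15.5 kb above the gene, at chr18:88909850-88910861, and had no peak in any Flt3-ITD list. Elsewhere its −log10 p was 32.6 in set-1 wild type, 15.3 in Runx1-het, 32.6 in set-2 wild type and 29.3 in NUP98-HOXD13. In equal-length lists the Runx1-het peak was too weak to be kept, and the region was lost in 3 of 4 pairs (1 of 75, background 1.36%).

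For the other alleles of the study, the counts lay near or below the share of all regions, except those higher with NUP98-HOXD13. The 2 NUP98-HOXD13 lists ranked above the other 6 lists without overlap in 7 of 37 regions (18.9%, background 9.86%) and below them in 3 (8.11%, background 11.2%). The widest such gap was at Socs7, 18.6 points, in a region inside the neighbouring gene Arhgap23 at chr11:97415183-97416379, with percentiles of 83.4 in NUP98-HOXD13/Flt3-ITD and 81.9 in NUP98-HOXD13, against 45.3 to 63.3 in the other 6. A region 16.0 kb above Socs3, inside the lipid enzyme gene Pgs1, had a gap of 18.3 points, with percentiles of 57.0 in NUP98-HOXD13/Flt3-ITD and 61.9 in NUP98-HOXD13, against 13.2 to 38.7. The region 29.7 kb above Socs6 ranked lower, at 76.3 in NUP98-HOXD13/Flt3-ITD and 84.3 in NUP98-HOXD13, against 93.4 to 96.3; it lies just inside the window. The 2 Runx1-het lists were higher in 1 region (2.70%, background 3.09%) and lower in 1 (2.70%, background 2.56%). None of these was a region that separated the Flt3-ITD lists.

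The rest of the pathway was read from a list of 44 genes of JAK kinases, STAT factors, receptors, other inhibitors and ubiquitin ligase partners, all 44 matched. A region that ranked higher in every Flt3-ITD list than in any other was present at 6 of the 44 (13.6%), against 4.44% of all protein-coding genes, and at 2 of the 8 SOCS genes. A window with more regions is more likely to hold one, here and in the other counts of genes below. In equal-length lists the median was 9 regions over the 44 and 10.5 over the SOCS genes, against 6 over all protein-coding genes. Those 6 were the kinase gene Jak2, the receptor genes Csf2rb, Csf2rb2, Il6st and Flt3, and Pias2, a SUMO ligase gene whose family restrains STAT factors. Csf2rb and Csf2rb2, which encode cytokine receptor beta chains, shared 1 region, chr15:78325572-78326405. It had percentiles of 76.0 in set-1 Flt3-ITD, 79.5 in Flt3-ITD/Runx1-het, 70.9 in set-2 Flt3-ITD and 77.0 in NUP98-HOXD13/Flt3-ITD, against 39.5 in set-1 wild type, 51.7 in Runx1-het, 56.9 in set-2 wild type and 38.9 in NUP98-HOXD13. A region that ranked lower was present at 1 gene of the 44, Epor, the erythropoietin receptor gene (background 4.22%). In the lists as deposited the counts ran the other way: 0 of the 44 had a region that ranked higher (background 1.38%), and 6 (13.6%, background 6.55%) had one that ranked lower, namely Jak3, Stat4, Epor, Lifr, Ptpn6 and Cblb.

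By presence in equal-length lists, a region held by the 4 Flt3-ITD lists alone lay near 1 of the 44 pathway genes, Stat4 (background 0.585%), and near 1 of the 8 SOCS genes, Cish. The Stat4 region, chr1:52076090-52076876, had percentiles of 46.4 in set-1 Flt3-ITD, 40.5 in Flt3-ITD/Runx1-het, 19.3 in set-2 Flt3-ITD and 26.2 in NUP98-HOXD13/Flt3-ITD. Regions gained in at least 3 pairs lay near 2 of the 44, Jak3 and Stat4 (background 5.5%), and regions lost in at least 3 pairs near 4, Il6st, Ptpn1, Pias2 and Cul5 (background 7.07%). Cul5 encodes the cullin that SOCS boxes bind.

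Likeness to the SOCS genes was measured as the mean absolute difference in the number of regions per window over the 8 lists. By that measure Cish was nearest to H4c2 and Tmem198, each with a mean difference of 0.25 regions, and Socs1 to Repin1 and Aurkaip1, also with 0.25. Socs3 was nearest to Rapgef1 (0.5 regions). Socs2 had no close match, with 0.875 regions for Med21 and 1 for Ifi205.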

How the data were processed

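ATAC-seq was measured in 16 samples, 2 in each of 8 groups. Per the submitters' processing notes, Bowtie2 and MACS2 were used with the builds mm10 and GRCm38; the sources used here do not give their versions or settings. The authors' deposited columns per peak were the fold enrichment (a ratio), −log10 p, −log10 q, a score and the summit position. The deposited −log10 q served only as an alternative filter; the deposited score, whose meaning is not stated, was not used.

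Autosomal, X and Y peaks sharing 1 bp or more were merged over the 8 lists into regions with Python 3.11.15, numpy 2.4.6 and pandas 2.3.3. A region counted for a gene when it lay within the RefSeq GRCm38.p6 span or 30 kb of it, and distances run from the span. Strand was known only where a RefSeq promoter matched, and exons and introns were not annotated here. Per region and list, the peak with the highest −log10 p was used. The main region named for a gene was the one over its start, or the strongest inside its span. Named regions were those that met a presence or rank rule, and some of the strongest variable ones. The merging of peaks, the calls of presence in all Flt3-ITD lists or in all others alone, and the search by window were tested on simulated lists. The shortening of lists, the percentiles, the rank comparisons and the summits were not part of that test. The members and lists were chosen with earlier results of these data known.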

Additional observations from a re-analysis of the deposited data

Results flagged for a closer look

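Among 37 SOCS regions open in all 8 equal-length lists, 2 had percentile differences between Flt3-ITD and its matched partner that ran one way in both pairs of set 1 and the other way in both pairs of set 2. That is 5.41%, against 10.6% of all 39720 regions. These differences were not tested, and each is a difference between single lists. The region chr9:107289209-107290104 below Cish, inside Mapkapk3, differed by −1.61 points in set-1 Flt3-ITD minus wild type and by −1.76 in Flt3-ITD/Runx1-het minus Runx1-het, and by 1.77 in set-2 Flt3-ITD minus wild type and 0.842 in NUP98-HOXD13/Flt3-ITD minus NUP98-HOXD13. The region at the lower end of the Socs7 span, chr11:97361850-97363678, differed by −0.86 and −2.38 points in the same pairs of set 1 and by 1.25 and 3.74 points in those of set 2.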

How the results depend on the processing

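No paired analysis was possible because each group has 1 pooled list and no value per sample. Counts by presence moved with list length. In equal-length lists, 1 region in place of 0 was open in all 4 Flt3-ITD lists only, 0 in place of 1 was open in the other 4 only, and 2 in place of 1 were gained in 3 of 4 pairs. The pair of set-2 Flt3-ITD and wild type then gained 9 and lost 12 regions. The count of 3 regions ranked higher with Flt3-ITD became 1 in the lists as deposited and 1 by fold enrichment, the upper-end region of Socs2 in both. With windows of 10 kb the family had 44 regions, and with 100 kb 220. At 10 kb, 0 regions were open in all 4 lists without Flt3-ITD and in none with it. At that width 0 were also gained and 0 lost in 3 pairs. At 100 kb, 2 of 220 were gained (background 0.573%) and 2 lost (background 1.81%) in 3 pairs, and 6 ranked higher. For set-1 Flt3-ITD against wild type, 10 kb windows gave 3 losses, and 100 kb windows 31 gains and 15 losses. Flt3-ITD/Runx1-het against Runx1-het had 7 gains and 1 loss at 10 kb, and 32 and 21 at 100 kb. Set-2 Flt3-ITD against wild type had 8 losses at 10 kb, and 6 gains and 57 losses at 100 kb. NUP98-HOXD13/Flt3-ITD against NUP98-HOXD13 had 3 gains and 2 losses at 10 kb, and 21 and 18 at 100 kb. Wider windows take in more regions by construction. With each list left out in turn, 0 to 1 regions were open in every remaining Flt3-ITD list and in no other. The reverse gave 1 to 1. Gains in pairs numbered 1 to 8 and losses 3 to 5, with 2 of the 3 remaining pairs asked for. Regions that ranked higher numbered 3 to 5, with 5 without set-1 Flt3-ITD or without Runx1-het, and those that ranked lower 0 to 1. The other counts at 10 and 100 kb, and those with a list left out, have no share of all regions beside them. They cannot be read against a background here. Merging peaks under 200 bp apart, or keeping only peaks with a −log10 q of at least 5, left all 15 counts within 1.5 times. Read depth is unknown, so a region missing from a list was not called there and is not shown to be closed.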
